A study of Caenorhabditis elegans with 11 samples.

Results

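The comparison set 2 small RNA libraries of Caenorhabditis elegans aged 20 days against 3 libraries of animals aged 5 days, which made 5 of the 11 libraries of a study of 4 ages. Members were chosen by the age given in the labels, and the features compared were microRNA (miRNA) hairpins with enough counts, 145 of 250. All groups were whole hermaphrodites of N2, the standard laboratory strain, and no genotype or treatment other than age is given in the labels. The study's other libraries, 3 at 1 day and 3 at 10 days, shared the filter, the scaling and the estimate of spread between libraries. They also place the level at other ages, and those of 10 days entered a test of the course over 5, 10 and 20 days. The labels do not say from which stage days were counted, how old animals were kept apart from their progeny, or how many animals went into a library.

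A miRNA hairpin is cut from a longer transcript and then trimmed to a mature miRNA, which guides an Argonaute protein to messenger RNAs that match its seed, the bases near its 5′ end. Hairpins whose mature miRNAs share a seed form a family and can act on the same messengers. In C. elegans some families time larval development (lin-4 and let-7), some are made in oocytes and embryos (mir-35), and several single miRNAs, among them mir-34, mir-71, mir-238, mir-239 and mir-246, have been tied to stress resistance or the length of adult life. The deposited table gives 1 count per hairpin, so the 2 arms of a hairpin are not told apart.

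The 20-day libraries held 1650059 and 955506 counts and the 5-day libraries 1658343, 1233398 and 1660390, and at these depths 1 count was worth 0.602 to 1.05 CPM, the unit that scales each library to the same total. Across hairpins, which do not count as independent replicates, Pearson's r of log2 CPM was 0.994 between the 20-day libraries, 0.993 to 0.997 among the 5-day libraries and 0.954 to 0.955 between the ages. The number after L in each label, taken here as a sequencing lane although the labels do not call it that, was not shared by any 20-day and 5-day library. Levels below are CPM scaled by TMM, a factor from a trimmed mean of log ratios between libraries, and are therefore abundances relative to the other miRNAs of a library. TMM assumes that most hairpins do not change, whereas 60.7% of those tested were called changed. In whole animals, fewer cells of a type and less of a miRNA per cell cannot be told apart.

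By 20 days the developmental timing miRNAs mir-237, let-7 and mir-241, the intestinal mir-60, the muscle mir-1, the longevity miRNA mir-71 and mir-70 stood 3.06-fold to 10.1-fold below their 5-day level, while mir-1018, mir-2208a and the stress-linked mir-239b stood at 10.0 to 13.2 times theirs. Most members of the oocyte and embryo family mir-35 rose, and the abundant mir-58 family, related to bantam of flies, fell. edgeR's quasi-likelihood F-test called 88 of 145 hairpins changed at a Benjamini-Hochberg adjusted p under 0.05, which is 60.7% of those tested. At 20 days 50 of them (34.5%) stood higher and 38 (26.2%) lower. A change of over 2-fold was seen for 51, of which 30 rose and 21 fell. Over the whole set of tested hairpins the log2 change had a median of 0.02 and quartiles of -0.55 and 0.74. The 20-day and 5-day libraries did not overlap for 101 hairpins (69.7%), 55 higher and 46 lower, and mir-234 was the only called hairpin whose libraries overlapped.

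**Figure D1:**
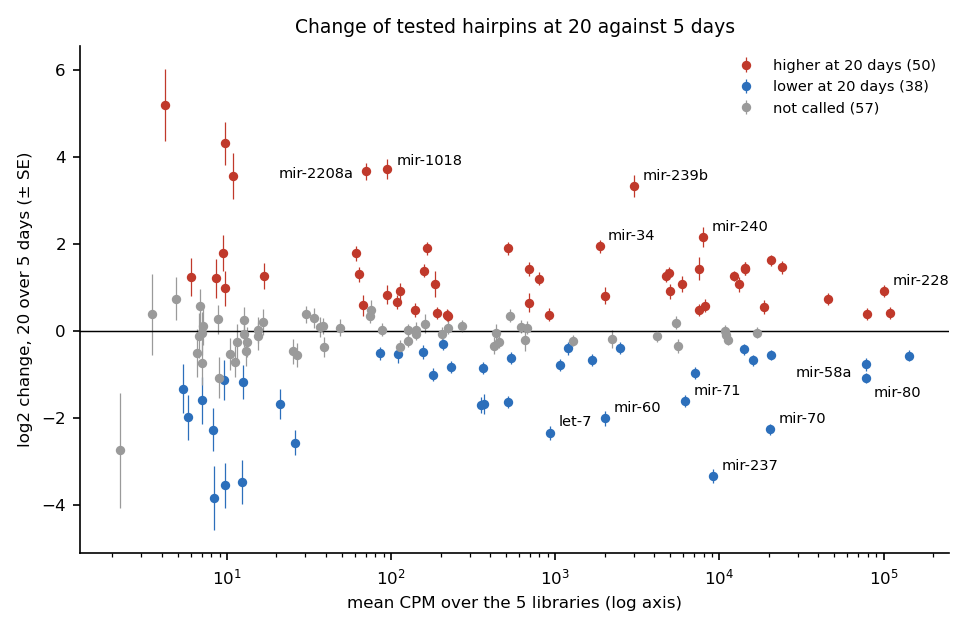
Log2 change of each tested hairpin at 20 over 5 days (± SE, vertical axis) against its mean CPM over the 5 libraries (horizontal log axis); colours mark the 50 hairpins called higher, the 38 called lower and the 57 not called. Called hairpins occur at all levels, and the largest changes at 50 CPM or more are those of mir-1018, mir-2208a and mir-239b upward and mir-237 and let-7 downward.

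mir-1018, whose role is not described here, rose most of the called hairpins that averaged 50 CPM or more over the 5 libraries. It had 226 and 194 CPM in the 20-day libraries, against 21.9, 14.9 and 11.0 CPM in the 5-day libraries, a log2 change of 3.73 ± 0.23 (SE; edgeR adjusted p = 2.43e-10). Its hairpin sits outside annotated genes on the plus strand of chromosome X, at 1879458 to 1879513 in WBcel235. The neighbours mir-4807 and mir-2220, within 7573 bases on the same strand with it, also passed the test as higher from small counts. mir-4807 had 35 and 21 counts at 20 days, against 1, 3 and 1 at 5 days, and mir-2220 had 20 and 7 counts at 20 days, against 0, 0 and 1 at 5 days. mir-2220 did not pass when lane was a fixed term. Of 11 hairpins annotated in that stretch these 3 were tested. mir-4807 and mir-2220 had enough counts for the test only through the 20-day libraries, so they could hardly enter it without a rise. Their direction therefore adds no support to that of mir-1018.

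mir-2208a, on chromosome IV, had 152 and 163 CPM at 20 days, against 15.2, 13.4 and 8.83 CPM at 5 days, a 12.7-fold rise (log2 change 3.66 ± 0.19 (SE), adjusted p = 3.91e-11). Its cluster partners mir-2208b and mir-2209a rose by 3.56 and 1.89 on the log2 scale, so the 3 tested hairpins of the cluster (IV, 1021772 to 1027281, plus strand) all passed, mir-2208b not with lane as a fixed term. mir-2208b had enough counts for the test only through the 20-day libraries, so its direction adds no support. mir-2209a, which carries the seed of the mir-58 family, had 311 and 275 CPM at 20 days, against 77.3, 85.6 and 75.1 CPM at 5 days. It was the only tested member of the mir-58 family that passed as higher.

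mir-239b, a heat-responsive miRNA, had 4888 and 8239 CPM in the 20-day libraries, against 798, 726 and 442 CPM in the 5-day libraries. The 20-day libraries differed 1.69-fold from each other and both stood above every 5-day library. The log2 change was 3.32 ± 0.26 (SE; adjusted p = 6.42e-09). Its seed relatives mir-239a and mir-238 changed less: mir-239a had 2440 and 2933 CPM at 20 days, against 1889, 1532 and 1197 CPM at 5 days (log2 change 0.80, adjusted p = 0.00210), and mir-238 averaged 8968 ± 226 CPM at 20 days (SD, n = 2) and 6440 ± 652 CPM at 5 days (n = 3; log2 change 0.48). On chromosome X, mir-239a occupies 11792445 to 11792542 of the plus strand and mir-239b 11791302 to 11791399 of the minus strand. In the 5 libraries the ratio of mir-239a to mir-239b counts lay between 0.356 and 2.71, with every 20-day library below 1 and every 5-day library above it.

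mir-240 had 10356 and 19485 CPM at 20 days, against 3304, 3915 and 2831 CPM at 5 days, a 4.45-fold rise with the widest gap between the 20-day libraries among the 5 largest rises. Its neighbour mir-786, which acts in the intestine to time defecation, was closer between libraries, with 1102 and 1117 CPM at 20 days, against 369, 407 and 469 CPM at 5 days (log2 change 1.42 ± 0.15 (SE), adjusted p = 2.40e-07). mir-34, a relative of the p53-linked miR-34 of mammals, had 3698 and 2981 CPM at 20 days, against 937, 920 and 757 CPM at 5 days (log2 change 1.94 ± 0.15 (SE), adjusted p = 7.22e-09). The rest of the 12 largest rises were mir-42, mir-43, mir-39, mir-37, mir-45 and mir-54, with log2 changes of 1.89, 1.78, 1.62, 1.46, 1.43 and 1.43. mir-54 was uneven at 20 days, with 8036 and 16172 CPM, against 5296, 4654 and 3521 CPM at 5 days.

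Of the called hairpins at 50 CPM or more, mir-237 fell most. It shares its seed with the larval timing miRNA lin-4. mir-237 had 1284 and 1545 CPM in the 20-day libraries, against 16793, 14112 and 12012 CPM in the 5-day libraries, a 10.1-fold fall (log2 change -3.34 ± 0.17 (SE), adjusted p = 3.91e-11). lin-4 itself fell less, to 398 and 411 CPM at 20 days, against 665, 661 and 545 CPM at 5 days (log2 change -0.62). As a share of all counts, the pair made up 0.174% ± 0.0206 at 20 days (SD, n = 2) and 1.54% ± 0.180 at 5 days (n = 3).

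let-7, the switch from larval to adult fates, had 259 and 282 CPM at 20 days, against 1444, 1380 and 1295 CPM at 5 days (log2 change -2.35 ± 0.16 (SE), adjusted p = 1.49e-09). mir-241, which acts with mir-48 and mir-84 earlier in larval timing, had 132 and 168 CPM at 20 days, against 517, 470 and 470 CPM at 5 days (log2 change -1.70). The let-7 family did not move as a block. mir-48, within 1872 bases of mir-241 on chromosome V, fell by 0.43 on the log2 scale, a call lost without replicate 1 of the 20-day group (-0.21), whereas mir-84 rose by 0.91, mir-795 by 0.66 and mir-793 by 0.41, the call of mir-793 being lost with total-count scaling and with the 50 CPM filter. mir-84 had 5977 and 7948 CPM at 20 days, against 3771, 4126 and 3216 CPM at 5 days. mir-794 and mir-1821 had log2 changes of 0.02 and 0.74 and did not pass, and mir-265 had too few counts.

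mir-70 had 5877 and 6475 CPM at 20 days, against 29992, 31892 and 27419 CPM at 5 days (log2 change -2.27 ± 0.13 (SE), adjusted p = 1.57e-10). It lies in an intron of pmp-5, on the strand of that gene (V, 6665536 to 6665635, minus strand). mir-71, whose loss shortens adult life, had 2737 and 2817 CPM at 20 days, against 8749, 8730 and 8003 CPM at 5 days, a 3.06-fold fall (adjusted p = 9.61e-09). mir-63 had 213 and 243 CPM at 20 days, against 735, 726 and 666 CPM at 5 days (log2 change -1.64). Its 4 seed relatives mir-64, mir-65, mir-66 and mir-229, which sit together in an intron of gcn-1 on chromosome III, had log2 changes of -0.10 to -0.20, and none passed. With total-count scaling, which moved the median of all hairpins by -0.12, and with the 50 CPM filter, 3 of the 5 passed as lower.

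The rest of the 12 largest falls were those of mir-75, mir-77 and mir-59, with log2 changes of -1.01, -0.97 and -0.86. mir-77, for example, had 4799 and 4272 CPM at 20 days, against 9371, 8987 and 8209 CPM at 5 days.

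**Figure D2:**
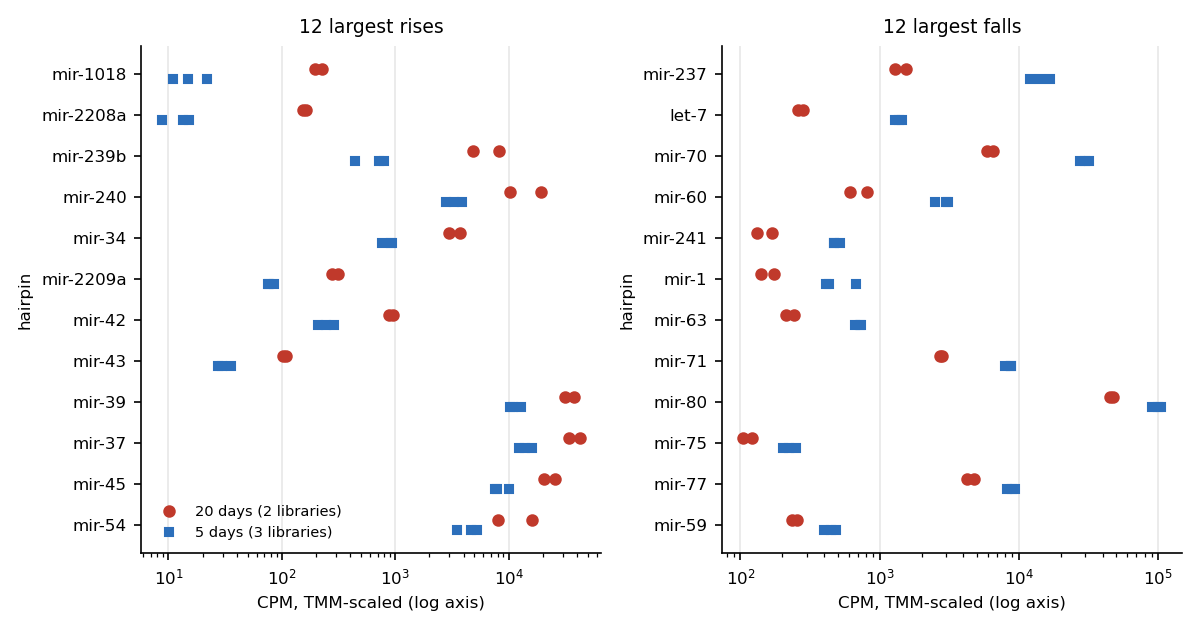
CPM of each library (horizontal log axis, TMM-scaled) for the 12 largest rises (left) and 12 largest falls (right) among called hairpins with at least 50 CPM; red circles are the 2 libraries of 20 days and blue squares the 3 of 5 days. The ages do not overlap for any of the 24 hairpins, which were chosen as called and largest in change. Of all 145 tested hairpins, 101 (69.7%) did not overlap.

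The levels of tissue-restricted miRNAs moved in both directions. mir-60, made in the intestine, had 614 and 815 CPM at 20 days, against 3123, 2505 and 3005 CPM at 5 days (log2 change -2.01 ± 0.18 (SE), adjusted p = 2.25e-08). mir-1, made in body-wall and pharyngeal muscle, had 175 and 140 CPM at 20 days, against 680, 432 and 414 CPM at 5 days (log2 change -1.68 ± 0.23 (SE), adjusted p = 4.36e-06). mir-228, made in glia and among the most abundant hairpins, had 122154 and 157292 CPM at 20 days, against 85990, 67957 and 69000 CPM at 5 days (log2 change 0.91 ± 0.14 (SE), adjusted p = 2.45e-05). mir-57, which patterns the tail, rose by 0.54. Of the list's 9 members, 4 rose (mir-240, mir-786, mir-228 and mir-57) and 2 fell, against 34.5% higher and 26.2% lower of all tested hairpins. Their median log2 change was 0.26, against 0.02 for all. The 2 intestinal miRNAs on it moved apart, mir-60 down and mir-786 up. The neuronal miRNAs were rare and did not pass: lsy-6 had 11 and 9 counts at 20 days, against 13, 16 and 27 at 5 days, mir-124 had 15 and 9 against 11, 13 and 14, and mir-791 had a log2 change of -0.48 ± 0.29 (SE). With lane as a fixed term mir-791 passed as lower (log2 change -0.92).

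Of 11 miRNAs reported to affect or predict lifespan, 6 rose and 4 fell, against 34.5% higher and 26.2% lower of all tested hairpins. Their median log2 change was 0.48, against 0.02 for all. The rises were those of mir-239b, mir-34, mir-246, mir-228, mir-239a and mir-238, and the falls those of let-7, mir-71, mir-80 and lin-4. mir-246, whose level in single animals has been tied to how long they live, had 19125 and 18571 CPM at 20 days, against 8142, 8401 and 7042 CPM at 5 days (log2 change 1.26 ± 0.12 (SE), adjusted p = 5.84e-08). mir-83, a relative of miR-29, was uneven at 5 days, with 632 and 556 CPM at 20 days, against 950, 396 and 731 CPM at 5 days, and did not pass (log2 change -0.22 ± 0.24 (SE)). Without replicate 2 at 5 days, the lowest of that age, it passed as lower (log2 change -0.50, edgeR adjusted p = 0.00640).

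The mir-35 family, needed for embryos to survive, made up 30.2% and 27.8% of all counts in the 20-day libraries, against 20.8%, 19.0% and 21.1% in the 5-day libraries. Of its 8 members, 7 passed as higher and none as lower, against 34.5% higher and 26.2% lower of all tested hairpins. The median log2 change was 1.23 in the family and 0.02 in all. mir-35 to mir-41 lie within 797 bases, can come from 1 transcript and do not count as separate events. The rises were uneven within the cluster of mir-35 to mir-41 (II, 11537608 to 11538404, plus strand, inside an intron of Y62F5A.9, whose own strand is minus). mir-39 had 37720 and 31441 CPM at 20 days, against 10857, 12782 and 10205 CPM at 5 days (log2 change 1.62), and mir-37, mir-36 and mir-38 rose by 1.46, 1.27 and 1.20. The most abundant members moved less: mir-40 had 133500 and 122186 CPM at 20 days, against 97842, 93835 and 96333 CPM at 5 days (log2 change 0.41 ± 0.14 (SE), adjusted p = 0.0184), and mir-35 rose by 0.39. mir-41, with 65.8 and 116 CPM at 20 days, against 66.3, 79.3 and 47.5 CPM at 5 days, did not pass (adjusted p = 0.0838). The number of members called higher was 5 to 8 over the alternatives. mir-35 lost its call under 10 of 21 alternatives, among them RLE, upper-quartile and total-count scaling, DESeq2 and the omission of either 20-day library or of replicate 2 or 3 at 5 days. mir-40 lost its call with upper-quartile scaling, with the 50 CPM filter and without replicate 3 at 5 days. This family is also the marker of embryos and germline, and its part in other differences was not tested.

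The mir-58 family, which acts in body size and TGF-beta signalling, took the largest share of the 5-day libraries, at 39.6%, 38.9% and 38.7% of all counts. In the 20-day libraries it took 22.4% and 20.6%, a difference of -17.6 percentage points that exceeded the spread within either age. With 2 against 3 libraries an exact two-sided permutation test cannot give a p under 0.10, and it gave 0.10 here and for the mir-35 family (0.15 after Benjamini-Hochberg adjustment over 18 lists). Of 6 tested members, mir-80, mir-58a, mir-81 and mir-82 fell, mir-2209a rose and mir-58b, with few counts, did not pass. Of all tested hairpins, 26.2% were lower and 34.5% higher. mir-80 had 44995 and 47576 CPM at 20 days, against 105261, 90494 and 100116 CPM at 5 days (log2 change -1.09 ± 0.12 (SE), adjusted p = 3.09e-07). mir-82, the most abundant hairpin by its mean over the 5 libraries though below mir-40 and mir-228 in both 20-day libraries, had 116759 and 105680 CPM at 20 days, against 168110, 176358 and 151499 CPM at 5 days (log2 change -0.57 ± 0.12 (SE), adjusted p = 4.87e-04). mir-58a fell by 0.77 and mir-81 by 0.68 on the log2 scale.

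**Figure D3:**
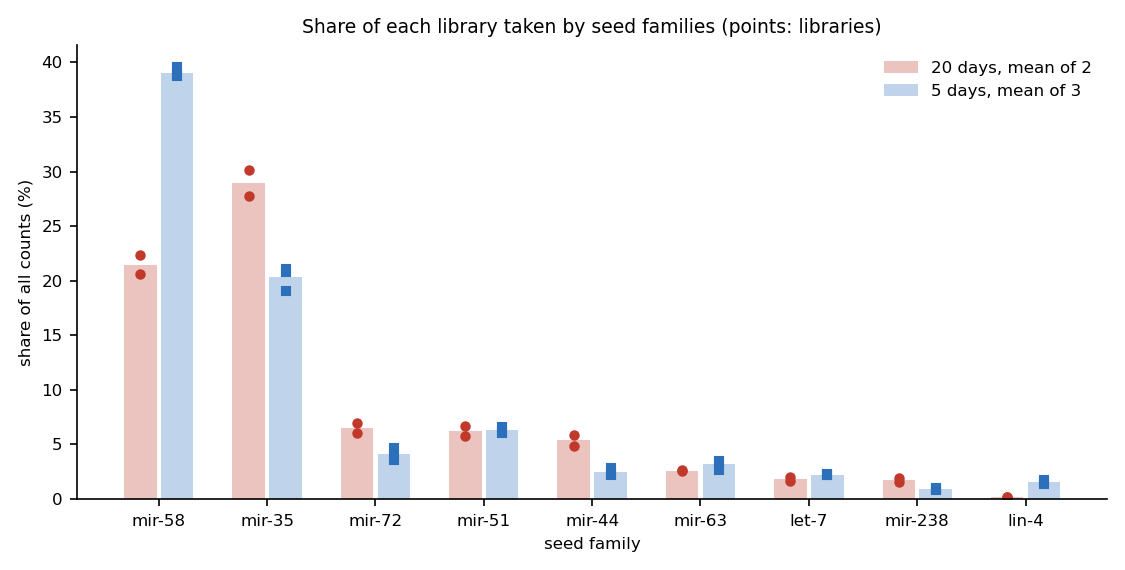
Share of all counts of a library (%, vertical axis from 0) taken by 9 seed families; bars are means of the 2 libraries of 20 days (red, left) and the 3 of 5 days (blue, right), and points are libraries. The mir-58 family took the largest share at 5 days and the mir-35 family the largest share at 20 days.

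Other families were smaller in share, and their rises and falls stand against 34.5% higher and 26.2% lower of all tested hairpins. In the mir-44 family, which promotes sperm fate in the germline, all 3 members with enough counts rose, mir-61 by 0.57 and mir-44 and mir-45 by 1.42 and 1.43. Counts of mir-44 and mir-45 differed by a ratio of only 0.995 to 1.02 in the 5 libraries, so the counting may not have told the pair apart, which leaves both values uncertain. In the mir-72 family, related to miR-31, mir-73 rose by 1.33 and mir-72 by 0.73, and mir-74 (0.10) did not pass. The mir-51 family, related to miR-100, parted: mir-54, mir-52 and mir-53 rose by 1.43, 1.08 and 0.65, mir-51 fell to 16297 and 15937 CPM at 20 days, against 23748, 23677 and 23378 CPM at 5 days, and mir-55 and mir-56 had log2 changes of -0.01 and -0.04. The call of mir-53 was lost with a 50 CPM filter, without replicate 2 at 20 days and without replicate 3 at 5 days. In the mir-2 family mir-43 and mir-797 rose (mir-797 not when lane was fixed in the model), and mir-2 (0.35, adjusted p = 0.0511) and mir-250 (0.09) did not pass. Under some alternatives mir-2 passed as higher, namely a robust fit and lane as a random term in limma-voom. The same held without replicate 1 or 2 at 1 day, replicate 1 at 5 days, or replicate 1 or 2 at 10 days. In the mir-50 family mir-90 rose by 1.06, and mir-50 and mir-62 did not pass (0.07 and 0.29).

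Among pairs with a shared seed, mir-251 and mir-252 both passed as higher (1.20 and 0.83), and mir-75 and mir-79 both as lower (-1.01 and -0.31). The shares over all tested hairpins were 34.5% higher and 26.2% lower. mir-233 rose by 0.91 where mir-87 (0.16) did not pass, and mir-47 fell by 0.79 where mir-46 (-0.23) did not pass. However, mir-46 passed as lower with RLE and total-count scaling, the 50 CPM filter, DESeq2 and without replicate 3 at 5 days. With lane as a fixed term mir-87 passed as higher (log2 change 0.76). Neither relative of miR-29, mir-49 (-0.06) or mir-83, passed with all libraries. The calls of mir-79 and mir-251 were the weakest of these: mir-79 lost its call under 12 of 21 alternatives, and mir-251, with 6 to 21 counts a library, under 4 of 20. The plot of list members shows called rises and called falls within the let-7, mir-51, mir-58, lifespan and tissue lists.

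**Figure D4:**
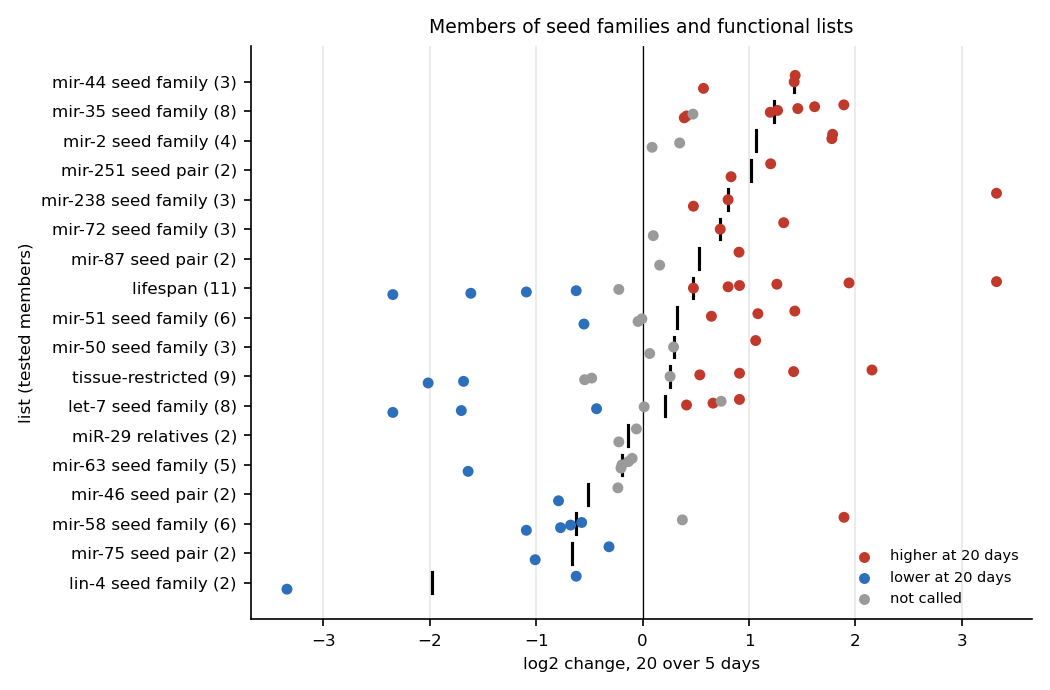
Log2 change at 20 over 5 days (horizontal axis) of every tested member of 18 lists, ordered by median (black bars); red marks called higher, blue called lower and grey not called, with the number of tested members in brackets. The mir-44 family (median 1.42) and mir-35 family (1.23) lie on the right and the lin-4 family (-1.98) on the left.

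Hairpins that lie close together can come from 1 transcript. Of the tested hairpins, 49 fell into 18 clusters of at least 2, defined by gaps of at most 10000 bases on the same strand. All tested members passed as higher in 4 clusters (mir-1018, mir-2208a, mir-240 and mir-42 to mir-44) and as lower in 1 (mir-48 and mir-241). Of all tested hairpins, 34.5% passed as higher and 26.2% as lower. The calls of mir-2208b, mir-2220 and mir-48 were lost under 1 alternative each. mir-4807, mir-2220 and mir-2208b met the count filter only through the 20-day libraries, so agreement within the mir-1018 and mir-2208a clusters was partly built in. In the mir-42 cluster (II, 11889811 to 11890118, plus strand), mir-42, mir-43 and mir-44 rose by 1.89, 1.78 and 1.42 although each carries a different seed. The counting may not have told mir-44 from mir-45, which lies outside the cluster on the minus strand. The value of mir-44 as a cluster member is therefore uncertain. In 3 clusters members passed in opposite directions. These were mir-73 (1.33) and mir-75 (-1.01) on chromosome X, mir-53 (0.65) and mir-51 (-0.55) on chromosome IV, and mir-90 (1.06) with mir-238 (0.48) against mir-80 (-1.09) on chromosome III. Within 404 bases on chromosome X, mir-54 rose by 1.43 and mir-55 and mir-56 did not pass; the difference between them was not tested. By chromosome, 7.14% of 14 tested hairpins on I were higher and 42.9% lower, where all tested hairpins gave 34.5% and 26.2%. The shares were 56% and 28% of 25 on II, 27.8% and 11.1% of 18 on III, and 33.3% and 29.6% of 27 on IV. They were 15.4% and 38.5% of 13 on V and 40.4% and 19.1% of 47 on X. On II, 10 of those 25 belong to the mir-35 and mir-42 clusters.

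The 10-day libraries placed these differences in time. For 72 of the 88 called hairpins, 44 higher and 28 lower, the 10-day mean lay between the 5-day and 20-day means. Hairpins called for a gap between those means are likelier to hold the 10-day mean inside it. The share over all tested hairpins was not counted, so the number does not by itself show gradual change. mir-237 averaged 14306, 4462 and 1414 CPM at 5, 10 and 20 days, with log2 changes of -1.68 in the first step and -1.66 in the second. mir-1018 averaged 16.0, 58.5 and 210 CPM, with log2 changes of 1.84 and 1.88. Since 5, 10 and 20 days are equal steps on a log2 scale of age, a contrast of the later step minus the earlier step was tested, which is 0 for equal change per doubling of age and is called a departure here. Of 145 hairpins, 32 (22.1%) departed by edgeR's test, 6 upward and 26 downward, but this split followed the scaling. The median departure of all hairpins was -0.31 with TMM, 0.05 with RLE and -0.67 with upper quartiles, and the upward and downward calls were 20 and 18 with RLE, 11 and 19 with scaling to library totals, and 2 and 57 with upper quartiles.

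The hairpins followed further were those past both thresholds with at least 50 CPM, up to 6 in each direction by size, which gave 4 upward and 6 downward. Of these 10, mir-241, mir-58a, mir-77 and mir-48 kept their departure call under all 21 alternatives. All 4 fell between 10 and 20 days, by 0.89 to 1.69 on the log2 scale. The direction of that step follows from their choice as lower at 20 days with a downward departure. Between 5 and 10 days mir-48 and mir-58a rose (0.45 and 0.34, edgeR adjusted p = 0.00284 and 0.0484), and mir-77 (0.21) and mir-241 (-0.01) did not pass. All tested hairpins had a median log2 change of 0.19 in that step with TMM. The step was not recomputed under the alternatives, so these rises may depend on the scaling. mir-241 averaged 485, 483 and 150 CPM at 5, 10 and 20 days, a departure of -1.68 ± 0.27 (SE; adjusted p = 1.89e-04). mir-58a averaged 93971, 118925 and 55096 CPM (departure -1.45 ± 0.23, adjusted p = 1.87e-04), and at 1 day it averaged 51218 CPM. mir-77 averaged 8856, 10249 and 4535 CPM (departure -1.39) and 4382 CPM at 1 day. mir-48 averaged 15693, 21486 and 11634 CPM (departure -1.34) and 12757 CPM at 1 day. The other 6, mir-359 and mir-1 downward and mir-239b, mir-2209a, mir-228 and mir-246 upward, lost their call under 1 to 7 of 21 alternatives. mir-246 averaged 7862, 9843 and 18848 CPM and mir-228 averaged 74316, 76706 and 139723 CPM at 5, 10 and 20 days.

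**Figure D5:**
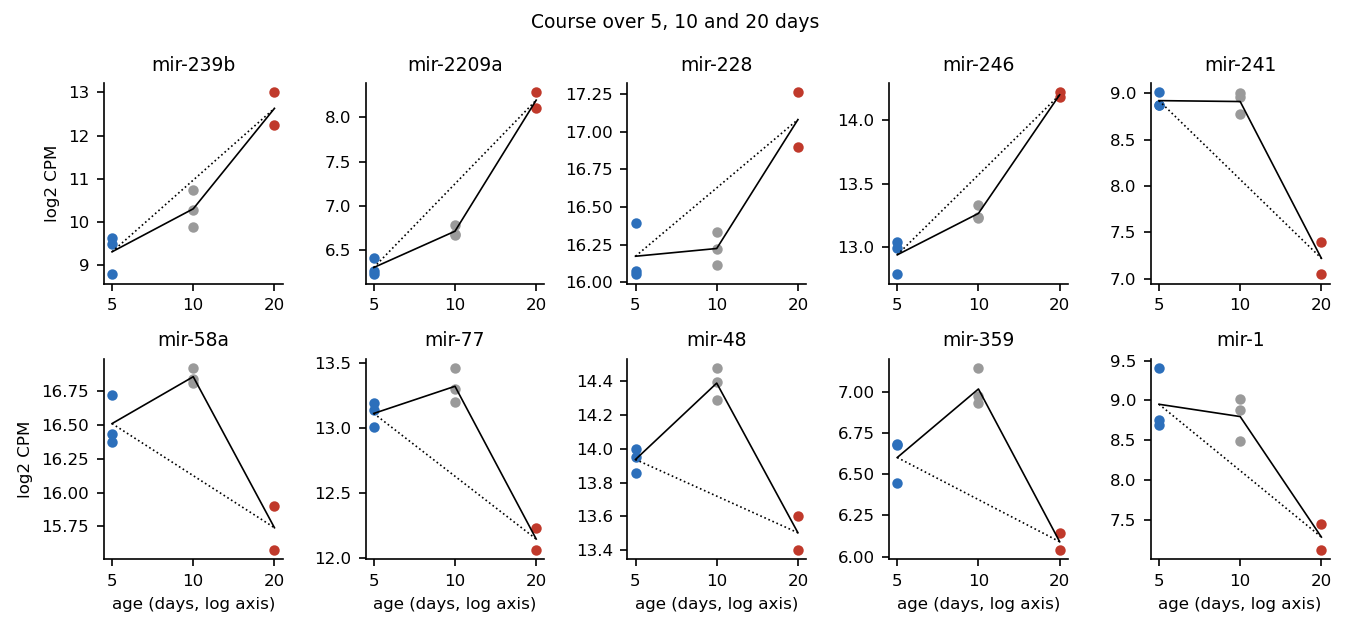
Log2 CPM (vertical axis) at 5 (blue), 10 (grey) and 20 days (red) on a log2 axis of age for the 4 upward and 6 largest downward departures among hairpins with at least 50 CPM that also passed at 20 against 5 days; points are libraries, solid lines join the mean log2 CPM and dotted lines join 5 and 20 days directly. mir-241, mir-58a, mir-77 and mir-48 lie above the dotted line at 10 days, which is what a downward departure means.

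Among hairpins that did not pass at 20 against 5 days, mir-230 had 432 and 297 CPM at 20 days, against 413, 530 and 454 CPM at 5 days (log2 change -0.34 ± 0.20 (SE), adjusted p = 0.156). At 10 days it averaged 177 CPM, below every library of either age, a departure of 2.44 on the log2 scale. mir-235, the relative of miR-92 that keeps larval blast cells at rest in starvation, had 5085 and 4527 CPM at 20 days, against 4945, 7340 and 6079 CPM at 5 days (log2 change -0.35 ± 0.16 (SE), adjusted p = 0.0741). A p that misses the threshold does not show that these levels were equal.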

How the data were processed

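Per the labels' protocols, small RNA libraries of whole N2 hermaphrodites were made with a TruSeq kit. The deposited values are raw counts per hairpin name, which the authors did not normalize. The submitters' processing notes name the tools SAMtools 1.3.1-9, BWA 0.7.12-r1039, Trimmomatic 0.36 and CASAVA 1.8.4, with no order or role. The reference, genome build, counting rule and handling of reads that match several hairpins are stated by no source used here, so values of near-identical hairpins are uncertain. Positions come from Ensembl release 115 (WBcel235), where 245 of 250 names had 1 place. No sequences were used here.

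Counts were analysed in R 4.3.3 with edgeR 4.0.16. filterByExpr (minimum count 10, minimum total 15) kept 145 hairpins. 1 fit with TMM factors and age as a factor covered all 11 libraries, so the 20-day group shared its estimate of spread, and p-values were adjusted over the 145. With a prior count of 0.125 for log2 changes, each SE came from the unshrunk change and the root of its F value. Replicate numbers follow accession order, and no label states separate cultures for libraries of an age. The p-values therefore measure only how far these libraries spread, which may be technical. Same-age libraries differed by more than counting noise (chi-square 78.3 to 185 times its degrees of freedom), so none was merged.

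Named hairpins were the 12 largest rises and 12 largest falls among called hairpins with at least 50 CPM, the 5 most abundant, every tested member of 18 lists, up to 6 departures each way, and hairpins clustered within 10000 bases. Members, lists and rule were chosen with earlier results of these data known. The steps were tested on simulated counts. The alternatives tried were other scaling (RLE, upper quartiles, total counts), other filters, DESeq2 1.42.0, a robust fit, only the compared ages, each library omitted in turn, and lane, read from the number after L in each description, either fixed or as a random term in limma-voom (limma 3.58.1).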

Additional observations from a re-analysis of the deposited data

How the results depend on the processing

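The number of hairpins called at 20 against 5 days was 88, and 68 to 91 over the scaling, filter, tool and lane alternatives, and 75 to 89 with each of the 11 libraries left out in turn. Of the 88 calls, 60 held under every alternative in which the hairpin was tested, 28 were lost under at least 1 and 19 under 3 or more. All 24 largest rises and falls kept their calls. No named hairpin changed direction under an alternative where it was called in the main fit or in that alternative. Changes of sign without a call were not counted. With lane as a fixed term 67 of the 88 were called. That fit had nearly as many terms as libraries. It compared 20 with 5 days only through lanes shared with 1-day or 10-day libraries, and a library alone in its lane added nothing. Calls kept or lost under it are therefore a weak check on lane. Total counts gave 43 higher and 48 lower. Departures from a straight line numbered 32, but 59 with upper-quartile scaling and 23 to 35 with a library left out. The split of 6 upward and 26 downward became 22 and 10 without replicate 1 of the 20-day group, 13 and 14 without its replicate 2, 15 and 8 without replicate 1 of the 10-day group, and 17 and 14 without replicate 2 of the 1-day group. The cause was not tested. Leaving out a 20-day library leaves 1, which is then assumed to vary like the other ages. No paired analysis was possible because the labels give no replicate numbers shared between ages. Hairpins under 10 CPM rest on few counts, and counting limits cover counting error only.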

Other observations

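Of the 88 called hairpins, 19 had a mean under 50 CPM over the 5 libraries, and the following were chosen after their values were seen. mir-788 had 2 and 1 counts at 20 days, against 21, 25 and 25 at 5 days (edgeR adjusted p = 8.17e-06). mir-1020 had 0 and 2 counts at 20 days, against 17, 22 and 21 at 5 days (adjusted p = 1.58e-04), and mir-78 had 1 and 3 counts at 20 days, against 32, 29 and 28 at 5 days (adjusted p = 8.17e-06). All 3 kept their calls under every alternative in which they were tested.

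The hairpins mir-789-1 and mir-789-2, which share a name, differed. mir-789-1 had 11 and 5 counts at 20 days, against 53, 57 and 72 at 5 days (log2 change -2.58 ± 0.28 (SE), adjusted p = 2.92e-07). mir-789-2 had 22 and 5 counts at 20 days, against 24, 25 and 21 at 5 days, and did not pass (log2 change -0.48 ± 0.34 (SE)). The difference between the 2 changes was not tested.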
